A study of Mus musculus with 3 samples.

Results

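The genes described are 3 fibroblast growth factor (FGF) receptors, Fgfr1, Fgfr2 and Fgfr3, the FGF ligands Fgf1, Fgf2 and Fgf7, hepatocyte growth factor (Hgf) and its receptor Met. They were taken by name, as all noncontrol array probes annotated to 1 of these 8 genes, which gave 15 of 39429 probes and 42 of 43020 spots. RM1 cells are a cultured mouse prostate cancer line, derived from prostate cells transformed with the ras and myc oncogenes. The compared cells were RM1-MXRA7, transfected with MXRA7 (matrix remodelling associated 7), and RM1-VE, transfected with the vehicle vector. Both were kept in DMEM with serum and G418, the drug that selects for the transfected vector, and total RNA was taken in exponential growth on day 2. The labels do not say whether each line was a pool or 1 clone, from which species the MXRA7 sequence came, or whether the 3 repeats were separate cultures, so the p-values measure the spread between these arrays, which may be technical.

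Most FGFs are secreted proteins that bind receptor tyrosine kinases of the FGFR family together with heparan sulphate on the cell surface. HGF is secreted as an inactive chain, is cut by serine proteases, and binds the receptor tyrosine kinase MET. Both receptor families signal through shared adaptors to the kinase ERK, which raises its own inhibitors of the Sprouty and DUSP families. In the prostate, FGF7 and HGF come mainly from the stroma and act on epithelial cells, which carry the IIIb splice form of FGFR2 and MET.

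The sequences of 5 member probes are shown so that the stretch of transcript each value stands for can be seen. Positions are those of the array annotation on the mouse build mm9, and all 5 sequences, written 5′ to 3′ in the sense of the transcript, hold a reading frame without an internal stop. In the Fgfr1 and Fgfr3 probes, capitals mark the bases that are the same in both where the related stretches of the 2 receptors line up, 19 of 29. In the Fgfr2 probe, capitals mark the 42 bases that it shares with the second Fgfr2 probe, A_51_P432403, and its frame ends in a stop codon. The Fgf2 and Met probes, shown without capitals, were each spotted 10 times and give the values for these genes.
Fgfr1 A_55_P1967022, chr8:26684061-26684120, + strand: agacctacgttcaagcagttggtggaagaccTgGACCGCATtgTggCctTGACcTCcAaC
Fgfr3 A_65_P06147, chr5:34077856-34078090, + strand, across an intron: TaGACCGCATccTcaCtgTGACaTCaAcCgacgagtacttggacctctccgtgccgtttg
Fgfr2 A_55_P2094881, chr7:137307473-137307532, − strand: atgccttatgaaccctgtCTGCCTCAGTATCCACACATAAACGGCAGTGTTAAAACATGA
Fgf2 A_51_P399845, chr3:37247934-37295153, + strand, across an intron: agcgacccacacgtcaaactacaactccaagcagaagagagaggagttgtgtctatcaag
Met A_51_P103929, chr6:17503299-17503358, + strand: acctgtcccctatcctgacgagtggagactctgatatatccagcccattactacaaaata

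Each of the 3 arrays held RM1-MXRA7 in Cy3 and RM1-VE in Cy5, and the dyes were never swapped. The dye bias of a probe and the effect of the line therefore cannot be told apart. The files give 1 slide and 1 scan for all arrays, and 0 spots were saturated. Between 21981 and 23166 probes were well above background in RM1-MXRA7 and between 21767 and 24172 in RM1-VE. On every array 21791 were so in the same line, or in both. The log2 ratios of RM1-MXRA7 over RM1-VE ran down the rows of each array, with Spearman correlations between ratio and row of -0.37, -0.34 and -0.33 on arrays 1 to 3. Every ratio is therefore given before and after removal of a smooth surface over row and column, and a probe is described as risen or fallen only where limma called it in the same direction in both fits (adjusted p under 0.05). Mxra7 itself did not meet that rule. Its brighter probe had log2 ratios of 0.39, 0.39 and 0.15 on arrays 1 to 3 (mean 0.31 ± 0.14, SD, n = 3, adjusted p = 0.00446), and 0.0069 after removal (adjusted p = 0.939). Its dimmer probe stood at 0.10 and, after removal, 0.091. Whether these probes read the transfected sequence was not tested, so they give no check of the labels.

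In these cells Fgfr1, Fgfr2, Fgfr3, Fgf1, Fgf7 and Met were measurable in both lines, each by at least 1 probe, whereas Fgf2 and Hgf were not well above background in RM1-VE on any array. Fgfr1 was the only member with a probe that rose, by 1.59-fold, and after surface removal by 1.27-fold. Of its other 2 probes, 1 was called higher only after surface removal and 1 was called in neither fit. Fgf1 was lower on every array but did not hold its call, and Fgfr2, Fgfr3, Fgf7 and Met passed the test in neither fit. In bulk RNA of a line, fewer cells with a transcript and less of it per cell cannot be told apart.

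Of the 15 probes, 9 were well above background on all 3 arrays, each in both lines, and they stood for 6 of the 8 genes. Before surface removal limma called 1 of the 9 higher, against 24.2% of all 21791 tested probes, and 1 lower, against 23.1% (47.3% in either direction). After removal it called 2 higher (all probes 15.6%) and 0 lower (16.1%, and 31.7% in either direction). In both fits it called 1 higher (11.2%) and 0 lower (12.5%, and 23.7% in either direction). At an unadjusted p under 0.05, 1 of the 9 was higher and 1 was lower in both fits, against 3346 higher and 3636 lower of all 21791 probes. Only the 2 called higher after removal lay above the share of all probes. In both directions together, all probes were called more often than the 9 members in each fit. The count of members called was thus no result about these genes.

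**Figure D1:**
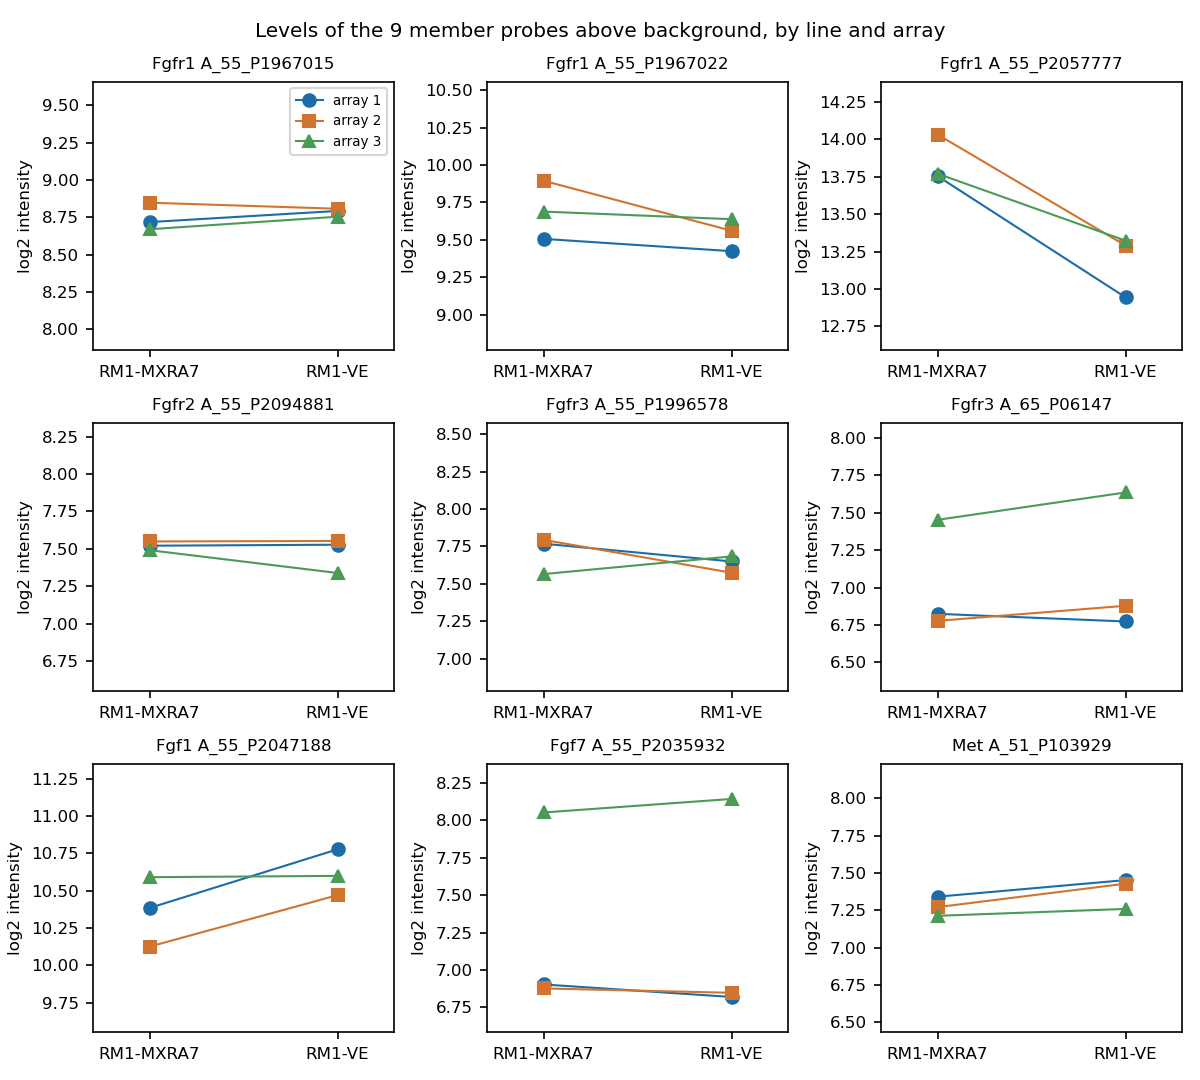
Log2 intensity (y axis, a span of equal height in every panel) of the 9 member probes above background, in RM1-MXRA7 and RM1-VE, with a line joining the channels of 1 array. The points of Fgfr1 A_55_P2057777 lie between 13.75 and 14.03 in RM1-MXRA7, all above 12.94 to 13.32 in RM1-VE, and array 3 stands apart in both lines for Fgf7 and for Fgfr3 A_65_P06147. Intensities are shown before surface removal.

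FGFR1 is the FGF receptor best known from mesenchymal cells, and it is raised in many prostate tumours. Its probe A_55_P2057777 (chr8:26685072-26685131) had log2 intensities of 13.75, 14.03 and 13.77 in RM1-MXRA7 on arrays 1 to 3, against 12.94, 13.29 and 13.32 in RM1-VE. The lowest RM1-MXRA7 value was above the highest RM1-VE value, so the lines did not overlap in these levels, taken before surface removal. Before any normalization the mean signals did overlap, at 11234.4, 12181.5 and 11253.1 in RM1-MXRA7 against 9440.5, 13091.3 and 13530.8 in RM1-VE. The share of all probes whose lines do not overlap was not counted. The log2 ratios were 0.81, 0.74 and 0.45, with a mean of 0.67 ± 0.19 (SD, n = 3), a 95% interval of 0.49 to 0.84 and an adjusted p of 1.1e-05 in limma. After surface removal the ratios were 0.42, 0.40 and 0.22, with a mean of 0.35 ± 0.11 (95% interval 0.21 to 0.49, adjusted p = 0.00353). The size of the rise therefore moved by more than the spread between arrays, while its direction was the same on every array in both fits.

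The spot of this probe lay in row 124, in a stretch of the array with high ratios. The neighbouring probes, within 10 rows and 10 columns, had a median log2 ratio of 0.30, 0.26 and 0.15 on arrays 1 to 3. Agilent's own processed signals gave 0.37 ± 0.11 (adjusted p = 0.0178). Median centring in place of loess gave 0.19 ± 0.21 (adjusted p = 0.0891), which ended the call. That setting moved the median of all probes to -0.27, and relative to that median the Fgfr1 probe stood at 0.46. The probe holds 28 A among its 60 bases.

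The other Fgfr1 probes lie on either side of this one. A_55_P1967022, whose sequence is printed above, lies 951 bases upstream of A_55_P2057777. It had levels of 9.51, 9.90 and 9.69 in RM1-MXRA7 and 9.42, 9.56 and 9.64 in RM1-VE, so the lines overlapped. Its log2 ratios of 0.082, 0.33 and 0.051 were above 0 on all 3 arrays (mean 0.16 ± 0.16, adjusted p = 0.12). After surface removal the mean was 0.28 ± 0.13 (adjusted p = 0.0120), and in Agilent's processed signals 0.37 ± 0.13 (adjusted p = 0.0211), while median centring turned it to -0.13 (adjusted p = 0.160). Without array 2 the mean was 0.067, and after surface removal 0.21 (adjusted p = 0.130), which ended that call. This spot lay in row 382, where the same median over its neighbours averaged -0.14.

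The remaining Fgfr1 probe, A_55_P1967015 (chr8:26685820-26685879), lies 688 bases downstream of A_55_P2057777 and holds 36 T among its 60 bases. Its levels were 8.72, 8.85 and 8.67 in RM1-MXRA7, against 8.79, 8.81 and 8.75 in RM1-VE. The lines overlapped, with log2 ratios of -0.075, 0.041 and -0.084. The mean of -0.039 ± 0.069 (adjusted p = 0.690) was -0.13 after surface removal (95% interval -0.26 to 0.0020, adjusted p = 0.118). Agilent's processed signals gave -0.19 ± 0.11 (adjusted p = 0.0962). The intervals of this probe and of A_55_P2057777 did not overlap in either fit. Averaged over its 3 probes before surface removal, Fgfr1 had a log2 ratio of 0.26 ± 0.12 (adjusted p = 0.0131), a mean over probes that disagreed. After removal the 3 probes stood at -0.13, 0.28 and 0.35, and their average was not tested.

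**Figure D2:**
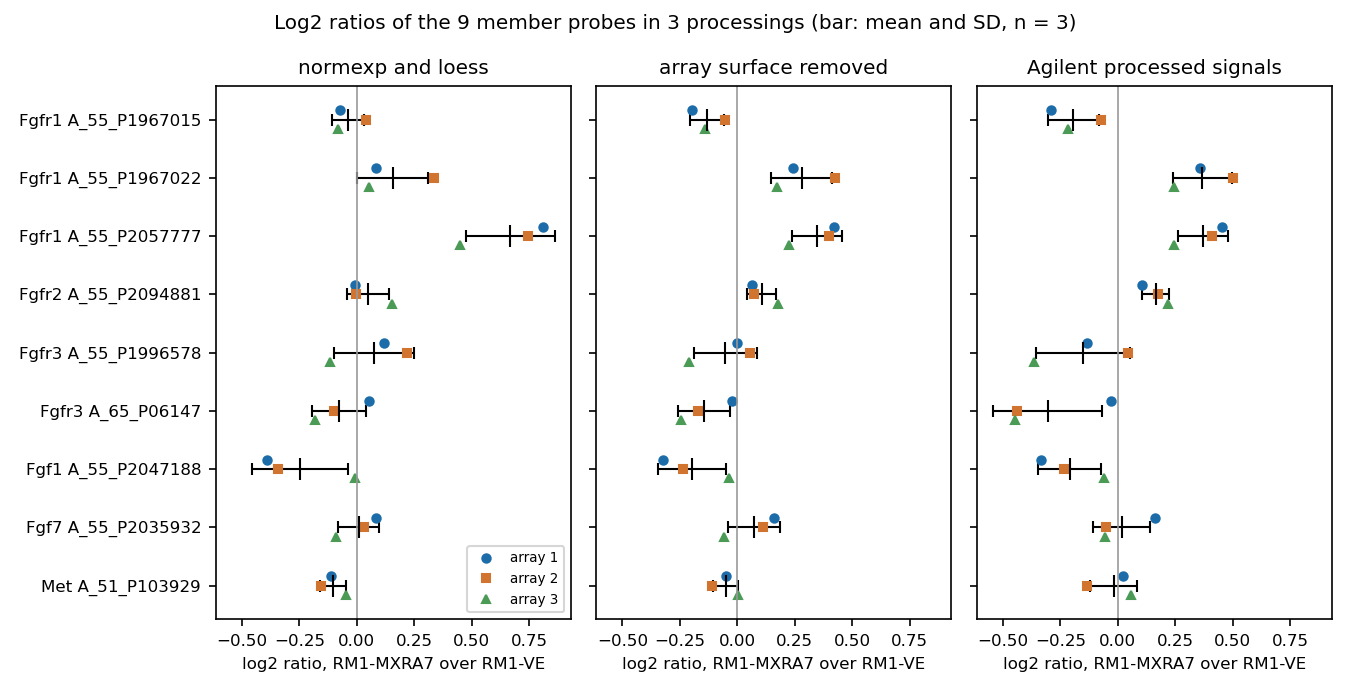
Log2 ratio of RM1-MXRA7 over RM1-VE (x axis) of the 9 member probes, with a symbol per array and a bar for the mean and SD (n = 3), from normexp and loess, after surface removal and from Agilent's processed signals. Fgfr1 A_55_P2057777 lies right of 0 on every array in all 3 panels, Fgfr1 A_55_P1967022 does so too, and Fgf1 lies left of 0 on every array.

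FGFR2 is the receptor whose IIIb splice form answers FGF7 in epithelia. Its probe A_55_P2094881 had levels of 7.52, 7.55 and 7.49 in RM1-MXRA7, against 7.53, 7.55 and 7.34 in RM1-VE. The lines overlapped and differed by 0.047 ± 0.091 on the log2 scale (95% interval -0.11 to 0.21, adjusted p = 0.630), and by 0.11 ± 0.063 after surface removal (adjusted p = 0.191). Agilent's processed signals gave 0.16 ± 0.058 for this probe (adjusted p = 0.105). The second Fgfr2 probe overlaps it by 42 bases and reads 18 bases further along the transcript. It was spotted 10 times, and 0 of its unflagged spots were well above background in either line on any array. The overlapping probes thus disagreed on whether Fgfr2 was above background, and the measured values rest on a single spot per array. The annotation ties neither Fgfr2 probe to the IIIb or the IIIc form, so the splice forms were not told apart.

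FGFR3 has epithelial and skeletal roles. Its probe A_55_P1996578 (chr5:34079649-34079708) had levels of 7.77, 7.79 and 7.57 in RM1-MXRA7, against 7.65, 7.57 and 7.68 in RM1-VE. Arrays 1 and 2 were higher in RM1-MXRA7 and array 3 lower, with a mean log2 ratio of 0.074 ± 0.17 (95% interval -0.099 to 0.25, adjusted p = 0.478) that turned to -0.052 ± 0.14 after surface removal (adjusted p = 0.578). This spot lay in row 31, where the median over its neighbours averaged 0.33.

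The Fgfr3 probe that crosses an intron, A_65_P06147, had levels of 6.82, 6.78 and 7.45 in RM1-MXRA7, against 6.77, 6.88 and 7.64 in RM1-VE. Array 3 was brighter than the other arrays in both lines, and the lines overlapped. The log2 ratio was -0.078 ± 0.12 (adjusted p = 0.431), and -0.15 ± 0.11 after surface removal (adjusted p = 0.107). Agilent's processed signals gave -0.31 ± 0.24 (adjusted p = 0.0778). Without array 1 the ratio before removal was -0.14. After removal it was then -0.21 (adjusted p = 0.0460), a call in that fit alone. Without array 3 the ratio was -0.025 before removal. The Fgfr3 probe A_55_P2150422 was not well above background in either line on any array.

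Among the ligands, FGF1 binds every FGF receptor. Its probe A_55_P2047188 on chromosome 18 had levels of 10.38, 10.13 and 10.59 in RM1-MXRA7, against 10.78, 10.47 and 10.60 in RM1-VE. RM1-MXRA7 was lower on each array, but across arrays the lines overlapped. The log2 ratios of -0.39, -0.34 and -0.0088 had a mean of -0.25 ± 0.21 (95% interval -0.43 to -0.069, adjusted p = 0.0240), so array 3 showed almost none of the difference. After surface removal the mean was -0.20 ± 0.15 (adjusted p = 0.0529), and in Agilent's processed signals -0.21 ± 0.14 (adjusted p = 0.0958). Without array 3 the probe was called lower in both fits, at -0.37 (adjusted p = 0.00345) and, after surface removal, -0.28 (adjusted p = 0.00903). Without array 1 it was -0.18 (adjusted p = 0.197) and without array 2 -0.20 (adjusted p = 0.185). The second Fgf1 probe, A_52_P538673, was not well above background in either line on any array.

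FGF7, also called keratinocyte growth factor, signals from stroma to epithelium. Its 1 probe (chr2:125916134-125916193) had levels of 6.90, 6.88 and 8.05 in RM1-MXRA7, against 6.82, 6.85 and 8.14 in RM1-VE. Array 3 was higher than arrays 1 and 2 by over 1 log2 unit in both lines, while within each array the lines lay close together. The log2 ratio was 0.0075 ± 0.089 (95% interval -0.15 to 0.17, adjusted p = 0.943), and 0.072 ± 0.11 after surface removal (adjusted p = 0.411). Without array 3 it was 0.056.

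FGF2, or basic FGF, was covered by 2 probes, and neither was well above background in either line on any array. The probe printed above has 10 spots, of which 9 on each array passed the outlier flags, and 0 of these were above background in either line. Hgf had 1 probe (chr5:16124829-16124888), which passed the background flag on 1 of 3 arrays in RM1-MXRA7 and on 0 in RM1-VE. Its levels were 6.38, 6.46 and 6.59 in RM1-MXRA7, against 6.22, 6.30 and 6.41 in RM1-VE. It did not pass the filter, so it was not tested and no fold is given.

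MET, the receptor of HGF, was read by 1 probe of 10 spots, all of whose unflagged spots were above background in both lines. Its levels were 7.34, 7.27 and 7.21 in RM1-MXRA7, against 7.45, 7.43 and 7.26 in RM1-VE. RM1-MXRA7 was lower on each array, and across arrays the lines overlapped. The mean log2 ratio was -0.10 ± 0.056 (95% interval -0.26 to 0.054, adjusted p = 0.263), and -0.051 ± 0.056 after surface removal (95% interval -0.18 to 0.079, adjusted p = 0.520). Median centring gave -0.20 (adjusted p = 0.0454), where the median of all probes was -0.27 and Met stood 0.071 above it.

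The 10 spots of the Met probe lie at different places on the array and so show how far 1 sequence varied with position. Over the 8, 9 and 10 unflagged spots of arrays 1, 2 and 3, the log2 ratios ran from -0.25 to 0.11 on array 1, from -0.30 to 0.0052 on array 2 and from -0.26 to 0.13 on array 3. After surface removal they ran from -0.15 to 0.079, from -0.27 to 0.070 and from -0.16 to 0.12. The SD between spots of this probe was 0.11, 0.084 and 0.14 before removal and 0.067, 0.091 and 0.097 after it. Against the size of the Met ratio averaged over all 3 arrays, this SD was larger on arrays 1 and 3 and smaller on array 2 before removal. After removal it was larger than that average on all 3. The Met ratios of arrays 1 to 3 were -0.11, -0.16 and -0.046 before removal and -0.048, -0.11 and 0.0033 after it. The SD between spots is not the error of a mean over them.

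**Figure D3:**
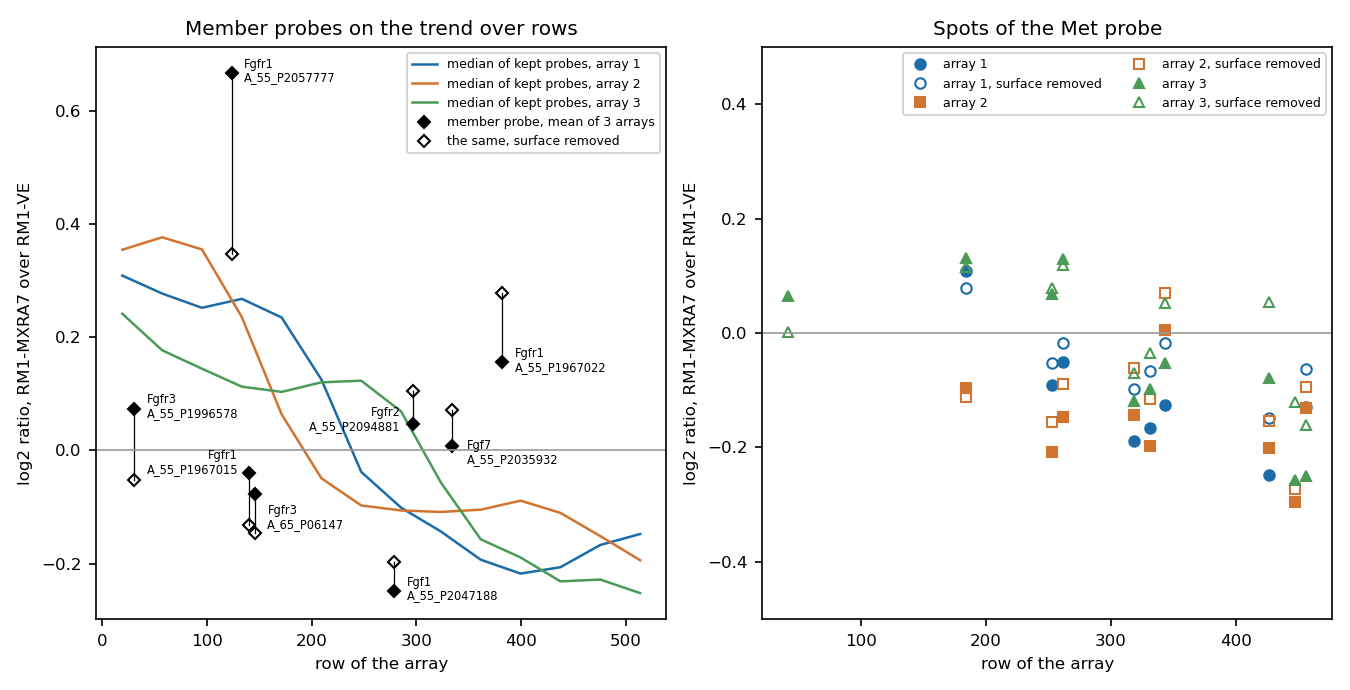
Left, log2 ratio of RM1-MXRA7 over RM1-VE against array row, with lines for the median of kept probes on each array, filled diamonds for the mean of each single-spot member probe and open diamonds for the same after surface removal. Fgfr1 A_55_P2057777 lies in row 124, above the trend, and moves to 0.35; right, the unflagged spots of the Met probe, one symbol per spot and array, which lie between -0.30 and 0.13 before removal.

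Markers of prostate epithelium and of other cell types were read on the same arrays. Of 13 prostate and epithelial markers, 5 were well above background in both lines on every array, the keratins Krt8, Krt18, Krt19 and Krt14 and the claudin Cldn7. Pbsn, which encodes the prostate secretory protein probasin, and the epithelial genes Epcam and Cdh1 were above background in neither line on any array. Of 7 fibroblast markers 4 were above background in both lines on every array, of 5 endothelial markers 4, and of 6 leukocyte markers 3, with Ptprc, the pan-leukocyte marker, on no array. Of all these markers, Krt19, Col1a1, Cdh5 and Cd3e fell in both fits, at log2 ratios of -0.73, -1.82, -0.87 and -0.29, and Dcn rose, at 0.37. Their part in the member values was not tested.

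Of the other genes of these pathways, 8 lists of 123 genes were taken, and 90 had a probe above background. In both fits 21 of these 90 rose and 10 fell, beside 11.1% and 13.2% of the 16819 genes measured. The same shares of all genes stand beside the counts of each list below. The lists differ in size and were chosen with earlier results of these data known. The median log2 ratio of the 90 was 0.020 before surface removal and 0.054 after it, against -0.015 and -0.0011 over all genes. Leaving out array 1 gave 15 higher and 15 lower, array 2 gave 10 and 6, and array 3 gave 12 and 8. Over all kept probes the counts in both fits also moved, from 2441 higher and 2716 lower with every array. They were 2183 and 2334 without array 1, 1108 and 1281 without array 2, and 2093 and 2419 without array 3. Of the 31 genes called in both fits, 0 changed sign in Agilent's processed signals and 6 did so under median centring, of which 0 did once the median of all probes was taken off. Of the genes named below, Ptbp1 is the one among these 6. Of the 31, 23 were called in the processed signals. Each gene was read by its brightest probe, and the other kept probes of the risen and fallen genes named are given.

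Among 5 measured FGF receptors and co-receptors outside the 8 genes, limma called 2 higher and 0 lower in both fits, with 1 lower before surface removal and 0 after it at an unadjusted p under 0.05. Fgfrl1, an FGF receptor that lacks the kinase domain, had log2 ratios of 0.65, 0.65 and 0.53 (mean 0.61 ± 0.070, adjusted p = 9.7e-06) and 0.31 after surface removal (adjusted p = 0.00404). Flrt2, a membrane protein that binds FGF receptors, rose by 0.27 ± 0.21 and by 0.39 after removal, while its dimmer probe stood at 0.054 (adjusted p = 0.577). Fgfr4, Kl and Klb were not measurable.

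Of 19 further genes of the FGF family, not all of them secreted ligands, 6 were measured. In both fits limma called 0 of them, against 1 lower at an unadjusted p under 0.05. Before surface removal Fgf6, Fgf18 and Fgf8 were called lower, at -0.22, -0.20 and -0.19, and after it Fgf23 was, at -0.21 (adjusted p = 0.0323). The dimmer Fgf18 probe stood at -0.11 before removal (adjusted p = 0.256) and at 0.16 in processed signals. In processed signals the brighter probes of Fgf6, Fgf18, Fgf8 and Fgf23 stood at -0.021, -0.020, -0.35 and -0.24. These 4 were named after their values were seen. The other 13 genes of this list, like Fgf2, did not pass the filter on background.

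Of 16 measured carriers of FGF and heparan sulphate genes, 7 rose and 2 fell, beside 11.1% and 13.2% of all genes. Their median log2 ratio was 0.19 before and 0.20 after surface removal. Sulf2, a sulphatase that trims heparan sulphate outside the cell, had log2 ratios of 1.39, 0.69 and 0.77 (mean 0.95 ± 0.38, adjusted p = 3.3e-06), and 0.63 after removal (adjusted p = 0.00601). Ndst2, which adds sulphate to the chain, rose by 0.49 ± 0.015 and by 0.39 after removal. Sdc2, a syndecan that carries heparan sulphate chains, rose by 0.44 ± 0.11 and by 0.19, and stood at 0.16 (adjusted p = 0.106) in processed signals. Hs2st1, a sulphotransferase of the same chain, fell by 0.35 ± 0.089 on the log2 scale, and stood at -0.54 after removal.

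The adaptors and effectors shared by both receptor families gave 1 rise and 1 fall among 19 measured genes, with a median of 0.0012. Mapk3, which encodes ERK1, rose by 0.56 ± 0.069 (adjusted p = 2.5e-05) and by 0.24 after surface removal, and its second probe stood at 0.56. Grb2, the adaptor that links receptors to Ras activation, fell by 0.62 ± 0.18 (adjusted p = 2.0e-05) and stood at -0.37 after removal. The dimmer Grb2 probe stood at -0.073 (adjusted p = 0.469), so the probes of this gene disagreed. Frs2, the docking protein of FGF receptors, was at -0.30 (adjusted p = 0.00506) before removal and -0.12 (adjusted p = 0.146) after it, and was named after its values were seen.

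Of 21 measured ERK feedback and target genes, 6 rose and 1 fell, with a median of 0.050 before and 0.065 after surface removal. Etv5, an ETS factor induced by FGF signalling, was the one that fell, with log2 ratios of -0.85, -0.58 and -0.92 (mean -0.78 ± 0.18, adjusted p = 1.7e-06) and -0.58 after removal. Spry1, a Sprouty inhibitor of the pathway, rose by 0.43 ± 0.26, with ratios of 0.23, 0.35 and 0.72, and by 0.35 after removal. Spred1, a Sprouty-related inhibitor, rose by 0.41 ± 0.094 and by 0.20, but its dimmer probes stood at -0.27 and -0.014. The former was called lower before removal (adjusted p = 0.00895) and stood at -0.060 after it, without a call. In processed signals Spry1 stood at 0.39 (adjusted p = 0.0749) and Spred1 at 0.18 (adjusted p = 0.0808). Myc, a growth-promoting transcription factor and the namesake of an oncogene used to derive RM1, rose by 0.33 ± 0.27 and by 0.35 after removal. The Etv5 fall and the Spry1 rise were thus opposite in direction within 1 list.

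**Figure D4:**
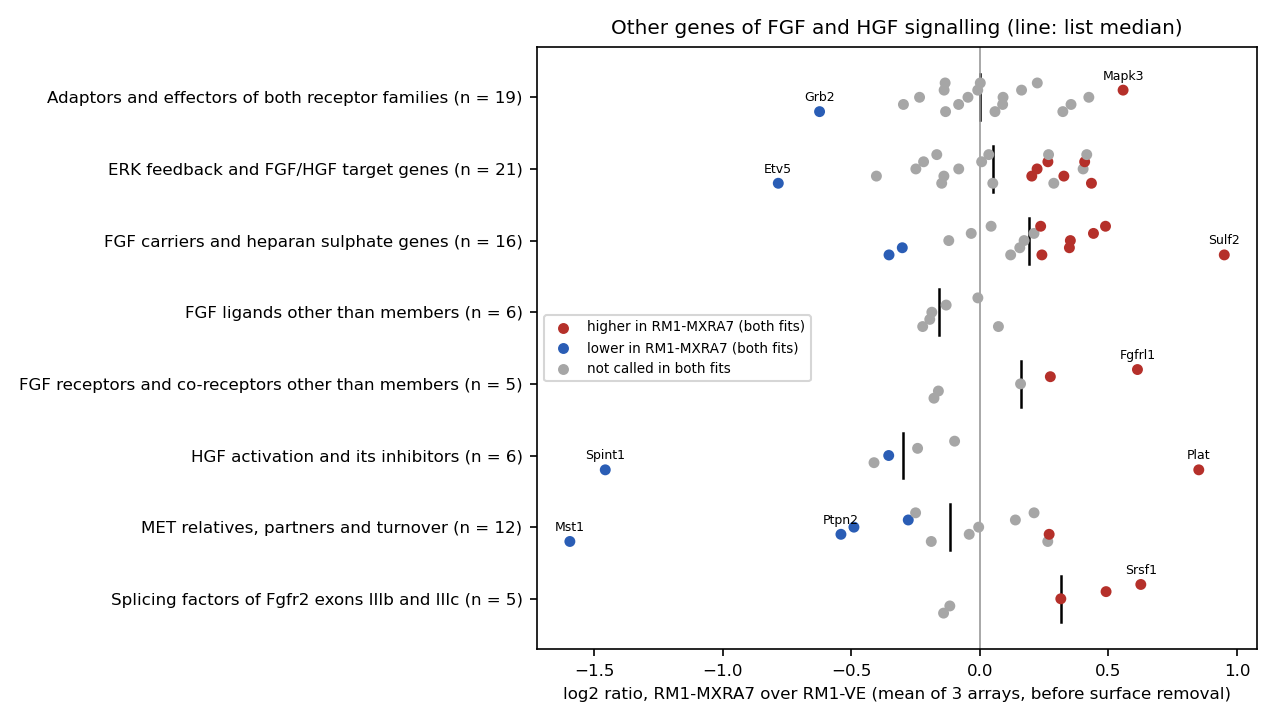
Mean log2 ratio of RM1-MXRA7 over RM1-VE before surface removal (x axis) of the measured genes of 8 pathway lists, 1 point per gene and a line at each list's median. Red and blue points are genes called higher and lower in both fits, and genes called in both fits with an absolute log2 ratio of at least 0.5 are named. Spint1 was above background on 1 array in RM1-MXRA7, so its place is uncertain.

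For HGF, the genes of its activation and inhibition gave 1 rise and 2 falls among 6 measured. Plat, tissue plasminogen activator, had log2 ratios of 0.95, 0.87 and 0.74 (mean 0.85 ± 0.11, adjusted p = 3.0e-07) and 0.52 after surface removal (adjusted p = 0.000461). Plau, urokinase, fell by 0.36 ± 0.080 and stood at -0.23 after removal, and at -0.16 (adjusted p = 0.165) in processed signals. Spint1 encodes HAI-1, which blocks the proteases that activate HGF, and it fell by 1.46 ± 0.19 on the log2 scale (adjusted p = 6.4e-10) and stood at -1.49 after removal. It passed the background flag on only 1 array in RM1-MXRA7 and on all 3 in RM1-VE, so the size of this fall rests on a channel mostly near background. In processed signals it was -3.11. Its second probe had mean log2 ratios of -0.44 and, after removal, -0.52, and -1.93 in processed signals. Hgfac, St14 and Tmprss2, proteases that act on HGF or on its activators, were not measurable.

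Among 12 measured relatives, partners and turnover genes of MET, 1 rose and 4 fell, with a median of -0.12 before and after surface removal. Mst1, macrophage-stimulating protein, is the ligand of the MET relative RON and resembles HGF. It had log2 ratios of -1.51, -1.84 and -1.43 (mean -1.60 ± 0.22, adjusted p = 2.7e-10) and -1.59 after removal, and its second probe stood at -1.85 and, after removal, -1.70. Mst1r, which encodes RON, was not measurable. Ptprj, a phosphatase that acts on MET, fell by 0.49 ± 0.11 and stood at -0.39 after removal, while its other 3 probes stood at -0.25, -0.17 and -0.037 and were not called in both fits. Ptpn2, another, fell by 0.54 ± 0.12 and stood at -0.31 after removal. The other 2 Ptpn2 probes stood at -0.010 and 0.11. Rnf41 encodes a ubiquitin ligase, and whether it acts on MET was not tested. Rnf41 fell by 0.28 ± 0.096 and stood at -0.20 after removal, with its second probe at -0.032. In processed signals it stood at -0.18 (adjusted p = 0.0778).

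Of 5 measured splicing factors of the Fgfr2 exons IIIb and IIIc, 3 rose and 0 fell, both at an adjusted and at an unadjusted p under 0.05. Over all genes 11.1% rose and 13.2% fell in both fits at an adjusted p under 0.05. Srsf1 rose by 0.63 ± 0.12 (adjusted p = 1.1e-05) and by 0.39 after surface removal. Its dimmer probes were called lower before removal, at -0.24 (adjusted p = 0.0144) and -0.20 (adjusted p = 0.0450). After removal these probes stood at -0.020 and -0.062 and were not called. Rbfox2 rose by 0.49 ± 0.25 and by 0.45, with its dimmer probe at -0.0024. Ptbp1 rose by 0.31 ± 0.098 and by 0.18, with its dimmer probe at 0.12 (adjusted p = 0.211). In processed signals Ptbp1 stood at 0.15 (adjusted p = 0.115), and median centring turned it to -0.18, or 0.089 above the median of all probes. Esrp1, the epithelial factor that favours IIIb, was measured at -0.14 ± 0.16 (adjusted p = 0.157), and Esrp2 was not measurable.

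The genes whose 3 log2 ratios lay nearest to those of Fgfr1 A_55_P2057777, by Euclidean distance over the 3 arrays among 12619 genes, were Slc41a2 at 0.049, Lrfn4 at 0.054 and Ndst3 at 0.077. After surface removal their mean log2 ratios were 0.48, 0.50 and 0.75, each above the 0.35 of the Fgfr1 probe. Likeness over 3 arrays is given as a description.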

How the data were processed

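The authors deposited Agilent Feature Extraction output, version 10.7.1.1 per the submitters' processing notes. Per the file headers it gives each spot's mean, background and processed intensity in 2 colours and a log10 ratio, the last not used. The deposited series matrix holds linear ratios, which lay within 1% of the processed Cy3 over Cy5 signal for 100% of 39030 probes compared (column medians 1.02, 1.03 and 0.972, so not centred).

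Intensities were corrected with normexp (offset 50) and loess within arrays in limma 3.58.1 under R 4.3.3. Levels are log2 intensities of each channel after loess and Aquantile. Spots with an outlier flag were dropped and spots of 1 probe averaged. A probe was kept if the Feature Extraction flag put it well above background on every array in the same channel, or in both. A probe with several spots needed the flag on most of them. The 3 log2 ratios of a probe were tested for a mean of 0 (lmFit, eBayes), with p-values adjusted by Benjamini-Hochberg over 21791 probes. Genes are read by their brightest kept probe, named through accessions (27508 probes, GRCm38.p6 RefSeq names) or as in the file (11921). Probe positions are those of the files on mm9, without exon or UTR annotation.

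The surface was a polynomial of degree 4 over row and column, alone and times intensity. It took 27.4%, 26.3% and 19.8% of the variance of arrays 1 to 3. The median SD between arrays was 0.0949 with it removed and 0.116 with it left in, and the Spearman correlation with processed ratios across probes was 0.916 with it removed and 0.710 with it left in. On simulated data of 21791 probes limma recovered 38 of 67 changes of 0.5, 65 of 67 of 1 and 66 of 66 of 2 on the log2 scale, with 5 false calls. The simulated noise was independent between probes, with each probe's SD after surface removal, and few probes were changed. It held no row trend, dye bias or background floor, so its false calls give no error rate for these arrays.

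Each array holds both lines under 1 number, so the ratio holds the pairing. Members, lists and markers were chosen with earlier results of these data known. Named are all members, up to 4 genes per list called in both fits with the largest absolute ratio, Mxra7, and the 3 genes nearest to a called member. Alternatives covered background, scaling, filters, flags, surface, processed signals, series matrix, probe collapse, blocks and arrays left out.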

Additional observations from a re-analysis of the deposited data

How the results depend on the processing

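The settings were changed 1 at a time, and those that combine surface removal or both fits with a left-out array were chosen after the data were seen. Counts are of the 9 member probes and 90 list genes, against 1 member higher, 1 lower, 31 list genes higher and 21 lower before surface removal, and pairs of counts below are higher, then lower. Median centring gave 0 and 3 members and 4 and 43 list genes, with the median of all probes at -0.27. Over all 21791 probes it called 1278 and 12294, against 5278 and 5034 before surface removal. The 3 were Fgf1 at -0.57, Fgfr1 A_55_P1967015 at -0.27 and Met at -0.20. Relative to that median they stood at -0.30, -0.0051 and 0.071. Median centring put Fgfr1 A_55_P2057777 at 0.19 and, with the sign turned, Fgf7 at -0.045, Fgfr2 at -0.070, Fgfr1 A_55_P1967022 at -0.13 and Fgfr3 A_55_P1996578 at -0.065. Relative to the median of all probes, those with a turned sign stood at 0.22, 0.20, 0.14 and 0.20. Processed signals and series matrix values gave 2 and 0 members and 18 and 12 list genes, with Fgf1 at -0.21 and that Fgfr3 probe at -0.15. Over all probes both gave 2507 and 2614. Surface removal gave 2 and 0 members and 12 list genes lower, with Fgf1 at -0.20 and the Fgfr3 probe at -0.052. Over all probes it gave 3408 and 3507. Without background correction Fgf7 stood at -0.072. Averaging the 2 kept Fgfr3 probes, in place of the brighter, gave -0.0020.

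With the array as a replicate block, the single channels gave the ratio test again (5278 probes higher and 5034 lower), since each array is a pair. Without the block 1464 were higher and 1249 lower, with 0 members lower, 8 list genes higher, 5 lower, and Fgf1 at -0.25 (adjusted p = 0.256).

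Leaving out 1 array in turn gave 1 member higher, 0 to 1 lower, 20 to 26 list genes higher and 10 to 18 lower. Over all 21791 probes, leaving out array 1, 2 or 3 gave 3944, 3283 and 5020 higher and 3453, 3242 and 4289 lower. Fgf1 ran from -0.37 to -0.18, Fgf7 from -0.031 to 0.056, Fgfr2 from -0.0051 to 0.075. After surface removal, leaving out array 1, 2 or 3 gave 2, 1 and 2 members higher, 0 to 1 lower, 20, 14 and 20 list genes higher and 16, 6 and 10 lower. In the same runs 3243, 1424 and 3008 of all probes were higher and 3225, 1583 and 3101 lower. Fgf1 then stood at -0.14, -0.18 and -0.28, and Fgfr3 A_55_P1996578 at -0.078, -0.10 and 0.026. Fgfr1 A_55_P2057777 was called higher under each alternative run except median centring. The causes were not tested. Dim probes near background, with log2 levels compressed by the offset, limit what Fgf2, Hgf, Fgf7, Met, Fgfr2 and Fgfr3 can show.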
